A study of Mus musculus with 22 samples.

Results

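The metabotropic glutamate receptors Grm2, Grm3, Grm4, Grm5, Grm7 and Grm8 were examined in ribosome-associated mRNA of 6 cell types of the mouse brain. The 6 genes were chosen by symbol out of 55385 genes in the deposited tables, and the values of their 32 annotated transcripts were summed for each gene. All 6 passed the filter on low counts, as did 20524 genes in all. Every mouse was 6 weeks old and carried 1 RiboTag allele (Rpl22 Fl/+), in which Cre recombinase switches on an HA-tagged ribosomal protein so that ribosomes of the Cre-expressing cells, with their mRNA, can be pulled down from whole tissue. Dentate gyrus granule cells (Rbp4-Cre, hippocampus) and layer V cortical neurons (Rbp4-Cre, cortex) shared a Cre driver and differed by the dissected region. Cerebellar granule cells (Gabra6-Cre, cerebellum), inhibitory interneurons (Dlx6a-Cre, hippocampus, 2 mice pooled per library), cortical astrocytes (Aldh1-cre in the labels) and cortical microglia (Tmem119-cre) had a driver each. The study's methods give the last 2 lines as the tamoxifen-inducible Aldh1l1-cre/ERT2 and Tmem119-cre/ERT2, and tamoxifen was given from 3 weeks of age. There were 3 biological replicates per cell type. No unselected tissue RNA was compared here.

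Metabotropic glutamate receptors are G-protein-coupled receptors that respond to the transmitter glutamate more slowly than ion-channel receptors and adjust excitability and transmitter release. Group I receptors, such as that encoded by Grm5, act through Gq and phospholipase C and sit mainly on the postsynaptic side. Group II (Grm2 and Grm3) and group III (Grm4, Grm6, Grm7 and Grm8) act through Gi/o, lower cyclic AMP and, in neurons, mostly restrain release from axon terminals. Grm3 is known from astrocytes as well as neurons, Grm4 from parallel fibre terminals of cerebellar granule cells, and Grm6 from the retina.

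On GRCm38, Grm2 lies at chr9:106643095-106656082 (minus strand), Grm3 at chr5:9485541-9725170 (minus), Grm4 at chr17:27422387-27521403 (minus), Grm5 at chr7:87584168-88134907 (plus), Grm7 at chr6:110645581-111567230 (plus) and Grm8 at chr6:27275119-28135178 (minus). Grm7 spans 921650 bases of genome and Grm2 12988, while the longest coding sequence annotated for each gene has between 2616 and 3609 bases. The alternative parts of the coding sequence that separate the receptor variants described further on are printed here, read from the GENCODE transcripts (release M21) whose versioned identifiers match those in the deposited tables. For Grm5, Grm7 and Grm8, capitals mark the variable coding part, and the 20 lower-case bases beside it are the constant sequence next to it. The Grm5 exon (chr7:88116193-88116288, plus strand, 96 bases) is included in Grm5-204 and skipped in Grm5-202. For Grm7, Grm8 and Grm4, the capitals are the last coding bases before the stop codon. The Grm4-201 end is printed for comparison with the Grm7 and Grm8 ends and does not mark a part that separates Grm4 variants.
Grm5-204 extra exon: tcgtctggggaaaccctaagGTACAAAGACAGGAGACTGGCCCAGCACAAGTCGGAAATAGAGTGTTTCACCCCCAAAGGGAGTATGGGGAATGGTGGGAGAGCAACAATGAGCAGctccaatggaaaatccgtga
Grm7-202 coding end: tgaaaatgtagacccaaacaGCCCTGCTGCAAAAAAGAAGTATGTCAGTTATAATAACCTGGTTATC
Grm7-201 coding end: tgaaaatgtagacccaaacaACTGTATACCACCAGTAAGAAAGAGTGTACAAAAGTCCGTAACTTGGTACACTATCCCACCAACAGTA
Grm8-201 coding end: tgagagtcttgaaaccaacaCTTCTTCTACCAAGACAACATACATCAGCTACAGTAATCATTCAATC
Grm8-202 coding end: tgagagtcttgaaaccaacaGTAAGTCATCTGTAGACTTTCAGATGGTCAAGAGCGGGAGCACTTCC
Grm4-201 coding end: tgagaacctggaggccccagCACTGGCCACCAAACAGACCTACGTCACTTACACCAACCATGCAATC
The Grm7-202 end (chr6:111566018-111566064) and the Grm7-201 end (chr6:111501510-111501577) follow the same exon, and the latter is longer, 68 bases against 47. The Grm8-201 end (chr6:27275648-27275694) and the Grm8-202 end (chr6:27285688-27285734) are both 47 bases long. The Grm4-201 end (chr17:27426787-27426833) also has 47 bases. Aligned base by base without gaps, it was identical to the Grm8-201 end at 29 of 47 positions and to the Grm7-202 end at 28, but to the Grm8-202 end at 12.

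The libraries held between 38270477 and 71440915 estimated counts (median 54631726, n = 18). Each of 4 replicates had a library in both of 2 batches, which the labels only number, and entered through batch 1. Interneurons and microglia had libraries in batch 2 alone. Of the 21 marker genes listed for the 6 cell types, 20 had every library of their own type above every other library; the exception, Bcl11b, was higher in dentate gyrus granule cells than in layer V neurons, at 159.5 against 34.4 TPM (kallisto's level, corrected for transcript length and scaled to 1 total in each library). RNA of other cell types was present: the 4 pan-neuronal markers summed to between 716.3 and 982.5 TPM in astrocytes and between 346.2 and 389.8 in microglia, against 7286 to 7466 in layer V neurons, and the 4 oligodendrocyte markers summed to between 2391 and 2561 TPM in interneurons and at most 857.4 elsewhere. The batch 2 library of layer V replicate 1 is labelled male but held 0.485 TPM of 4 Y-linked genes together. The batch 1 library of the same replicate is labelled female and held 0.385 TPM of them. The batch 2 library was used only in alternatives that take in batch 2 libraries of replicates with both.

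As TPM corrects for transcript length, receptors can be compared with each other within a cell type. Between bulk pulldowns, fewer cells of a type and less RNA per cell cannot be told apart. Cerebellar granule cells had the highest summed level of the 6 receptors, 490.4 ± 11.2 TPM (SD, n = 3). Dentate gyrus granule cells had 300.9 ± 28.3 TPM, astrocytes 285.8 ± 13.3, layer V neurons 165.1 ± 4.28, interneurons 140.4 ± 13.8 and microglia 18.4 ± 0.678. The leading receptor differed between cell types. Grm4 made up 99.6 ± 0.0678% of the sum in cerebellar granule cells, Grm3 89.3 ± 1.2% in astrocytes, Grm5 64.9 ± 0.687% in interneurons and Grm2 49.9 ± 1.21% in dentate gyrus granule cells. Layer V neurons had no such leader: Grm2, Grm5 and Grm7 held 24.4 ± 1.52%, 24.2 ± 1.37% and 21.6 ± 0.603%, with overlapping library ranges for Grm2 and Grm5. In microglia, 5 receptors held between 17.2% (Grm5) and 21.3% (Grm7) of a low total, and Grm8 held 4.01%.

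**Figure D1:**
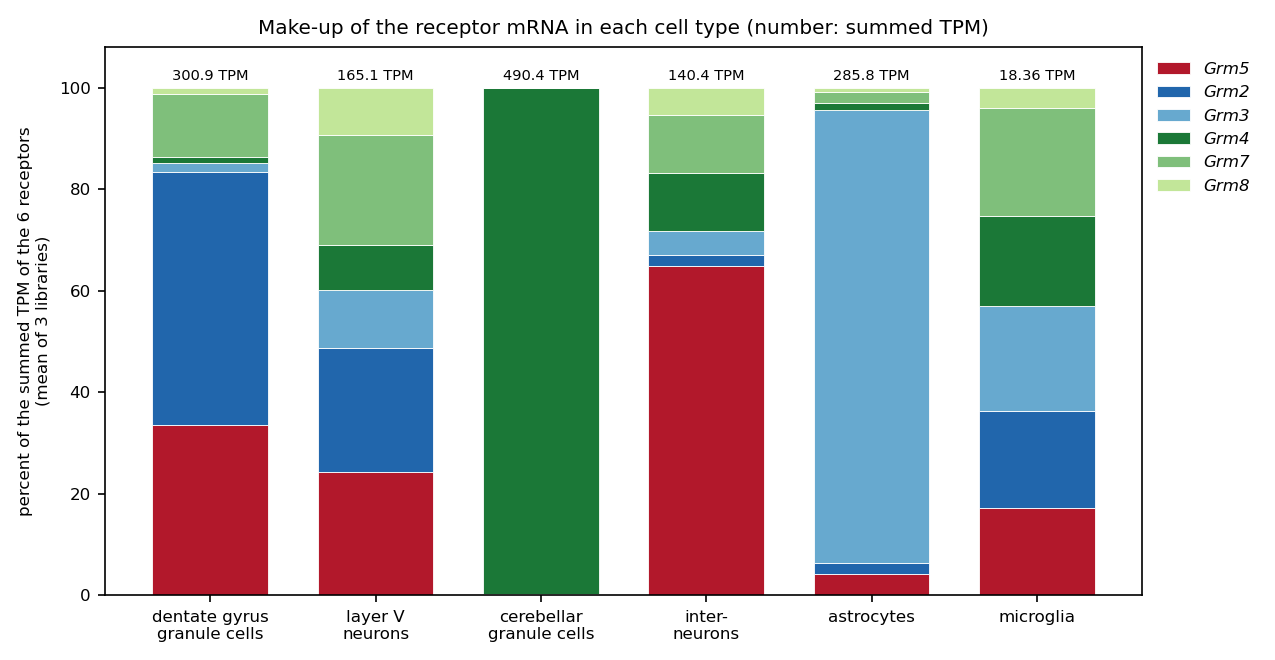
Share of each receptor (vertical axis, percent of the summed TPM of the 6 genes, mean of 3 libraries) in the 6 cell types, with the summed TPM above each bar. Cerebellar granule cells are almost all Grm4 (99.6%) and astrocytes mostly Grm3 (89.3%), whereas layer V neurons divide their 165.1 TPM among all 6.

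Grm5, which encodes the group I receptor mGlu5, was highest in dentate gyrus granule cells and hippocampal interneurons. Its libraries read 100.0, 111.5 and 90.9 TPM in dentate gyrus granule cells and 88.0, 102.3 and 83.3 TPM in interneurons, so these types overlapped. Layer V neurons followed at 38.2, 40.2 and 41.4 TPM, below every library of both. Astrocytes had 12.6, 12.1 and 10.3 TPM and microglia between 3.06 and 3.35. Cerebellar granule cells were lowest, at 0.866 ± 0.131 TPM (SD, n = 3). The highest and the lowest mean differed 116-fold, and both glial types lay between cerebellar granule cells and the forebrain neurons.

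Grm2, the group II receptor best known from presynaptic terminals, was at 139.7, 171.0 and 140.3 TPM in dentate gyrus granule cells, whose mossy fibre terminals carry mGlu2. Layer V neurons had 40.6, 43.7 and 36.7 TPM. The lowest dentate library was above the highest layer V library, and the means differed 3.73-fold. Interneurons, also taken from hippocampus, had 2.64, 3.48 and 2.45 TPM. That range overlapped microglia (3.38 to 3.67 TPM) and lay below astrocytes (5.73 to 7.24 TPM). In cerebellar granule cells Grm2 was at 0.0822, 0.44 and 0.0975 TPM, from 12 to 41 estimated counts per library.

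Grm3, the other group II receptor, was at 249.7, 243.9 and 272.4 TPM in astrocytes, 13.4 times the mean of the next cell type. That was layer V neurons, with 21.7, 18.4 and 16.9 TPM. Interneurons (5.34 to 8.0 TPM) and dentate gyrus granule cells (4.65 to 5.82 TPM) overlapped each other, and microglia (3.32 to 4.11 TPM) lay below both. Cerebellar granule cells had 0.302 ± 0.0914 TPM (SD, n = 3). The 4 astrocyte markers summed to between 102.0 and 103.3 TPM in layer V neurons and to at most 81.2 TPM in the other neuronal types, against 4969 to 5213 TPM in astrocytes. Slc1a2 (70.07 TPM) and Aldh1l1 (27.6 TPM) made up most of the layer V sum, while Aqp4 was lower there (1.32 TPM) than in any other neuronal type and Gja1 (3.61 TPM) lower than in dentate gyrus granule cells (5.26 TPM) and interneurons (6.90 TPM). The part of astrocyte RNA in the neuronal Grm3 level was not tested.

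Grm4, the group III receptor of parallel fibre terminals, had the highest level of any member in any cell type: 499.8, 488.3 and 477.3 TPM in cerebellar granule cells. The next types were interneurons (16.3, 17.2 and 13.9 TPM) and layer V neurons (14.9, 15.1 and 14.4 TPM), which overlapped. The mean of cerebellar granule cells was 30.9 times that of interneurons. Astrocytes (3.44 to 5.0 TPM), microglia (2.67 to 3.65 TPM) and dentate gyrus granule cells (2.08, 3.12 and 4.44 TPM) overlapped each other at the bottom. It was the only member that was not lowest in cerebellar granule cells.

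Grm7, a group III receptor of the active zone, was spread most evenly, with an 86.2-fold difference between its highest and lowest mean. Dentate gyrus granule cells read 33.1, 40.3 and 39.4 TPM and layer V neurons 34.5, 37.0 and 35.5 TPM, and their ranges overlapped. Interneurons had 15.4, 17.6 and 15.8 TPM, astrocytes 7.27, 6.03 and 4.13 TPM, and microglia 3.46, 4.64 and 3.66 TPM. Astrocytes and microglia overlapped. Cerebellar granule cells were at 0.437 ± 0.167 TPM (SD, n = 3).

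Grm8, the remaining group III receptor, was the lowest of the 6 in astrocytes and microglia, and in cerebellar granule cells by its mean, with a range that overlapped Grm2. It was highest in layer V neurons, at 15.13, 14.98 and 15.99 TPM, then in interneurons at 7.74, 8.42 and 6.27 TPM. Dentate gyrus granule cells had 2.73, 2.86 and 5.45 TPM. Replicate 1 fell within the range of astrocytes (2.28 to 2.85 TPM), replicate 2 lay just above it and replicate 3 further above. Microglia read between 0.695 and 0.778 TPM, and cerebellar granule cells between 0.0553 and 0.205 TPM, from 4 to 9 estimated counts per library.

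**Figure D2:**
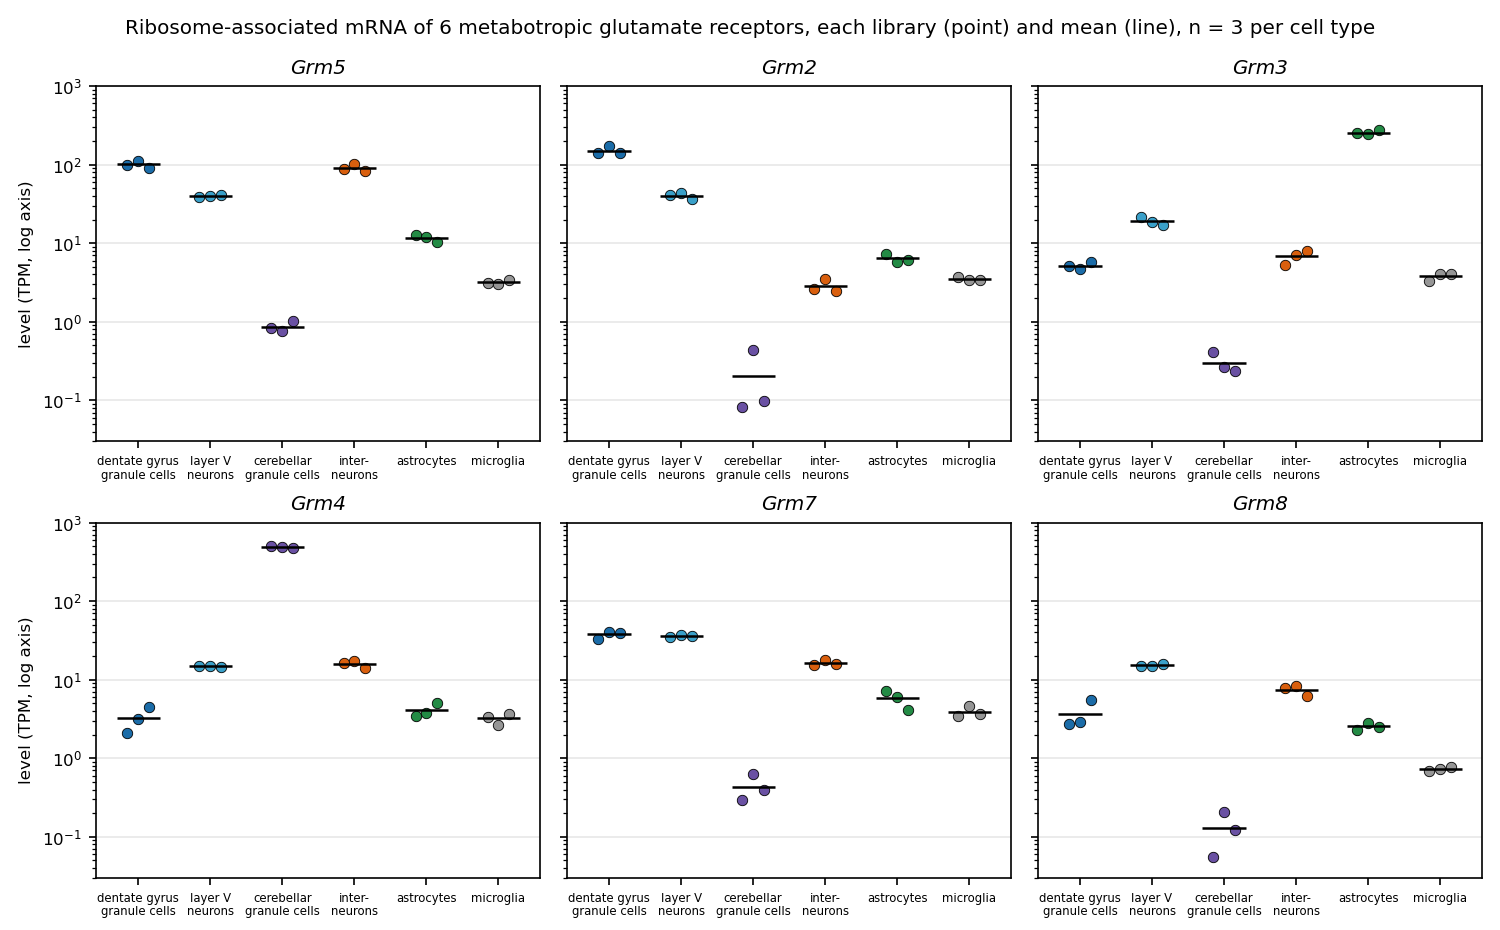
Level of each receptor (TPM, log axis) in every library (points) with the mean of 3 libraries (line), by cell type. Grm4 is near 490 TPM in cerebellar granule cells, where the other 5 receptors lie at or below 1.013 TPM, and Grm3 is near 255 TPM in astrocytes.

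Grm6, the retinal receptor, was listed at 0 in every library of 4 cell types and at most at 0.0188 TPM in any, and did not pass the filter.

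Comparisons between cell types used edgeR's quasi-likelihood test in 1 fit of 18 libraries, with Benjamini-Hochberg adjustment over all 20524 genes, and differences are given as log2 fold changes of scaled counts with their standard error (SE). A gene was called at an adjusted p of at most 0.05. Averaged over the 4 neuronal types and the 2 glial types on the log scale, all 6 receptors were called between neurons and glia, against 83.3% of all genes tested, so the count itself is close to the background. Of these, 5 were higher in neurons, and Grm3 was lower, with a log2 fold change of -3.26 (SE 0.0888, adjusted p = 1.7e-16 from edgeR). Grm4 was higher by 2.63 (SE 0.125) and Grm5 by 1.85 (SE 0.0524). Grm7, Grm2 and Grm8 were higher by 0.92, 0.54 and 0.58. The call of Grm8 was lost without cerebellar granule cell replicate 3 (log2 fold change 0.51, adjusted p = 0.0542 from edgeR).

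These averages joined unlike neurons. Cerebellar granule cells lowered every neuronal average but that of Grm4, so the comparison was repeated from the same fit with this cell type left out of the contrast, a choice made after its levels had been seen. All 6 were again called (83.2% of all genes). The log2 fold change of neurons over glia then rose to 3.43 (SE 0.0553) for Grm5, 2.58 for Grm7, 2.33 for Grm2 and 2.19 for Grm8, was 1.19 for Grm4, and was -2.06 for Grm3. Within batch 1, which holds no interneurons and no microglia, the log2 fold change of Grm8 was -0.95 and that of Grm7 0.12 (adjusted p = 0.266 from edgeR), while within batch 2, with 1 library each of astrocytes, dentate gyrus granule cells, layer V neurons and cerebellar granule cells, they were 0.97 and 0.92.

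Among the glia, all 6 receptors were higher in astrocytes than in microglia, where 76.1% of all genes tested were called in either direction. Grm3 differed by a log2 fold change of 6.13 (SE 0.149, adjusted p = 1.17e-16 from edgeR), a 70.0-fold difference. Grm8 followed with 1.93 (SE 0.252), Grm5 with 1.85 (SE 0.0796), Grm2 with 0.99, Grm7 with 0.96 and Grm4 with 0.59 (SE 0.19, adjusted p = 0.00925 from edgeR). The call of Grm4 was lost without astrocyte replicate 3 (log2 fold change 0.35, adjusted p = 0.105) and on the TPM scale. It was also lost within batch 2 (0.32, adjusted p = 0.0768 from edgeR), where a single astrocyte library, assumed to vary like those of other types, met 3 of microglia.

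Since layer V neurons, astrocytes and microglia came from the same tissue, the level in each glial type was also set against layer V neurons. In astrocytes, pan-neuronal markers reached from 10.3% (Snap25) to 18.03% (Syt1) of their layer V level. Grm2, Grm7 and Grm8 had means of 15.8 ± 1.93%, 16.3 ± 4.44% and 16.5 ± 1.86%, within the range of these markers. Grm5 at 29.2 ± 3.11% and Grm4 at 27.6 ± 5.57% were above it in every library, and Grm3 was at 1344% of the layer V level. Layer V neurons are an incomplete scale for neuronal RNA here. The 4 interneuron markers summed to between 76.7 and 116.2 TPM in astrocytes, against 27.8 to 31.8 TPM in layer V neurons. In hippocampal interneurons Grm5 was at 91.2 TPM and Grm4 at 15.8 TPM, against 39.95 and 14.8 TPM in layer V neurons. In microglia the pan-neuronal markers reached from 3.91% (Snap25) to 14.01% (Rbfox3). Grm8 (4.79%), Grm5 (7.91%), Grm2 (8.63%) and Grm7 (10.99%) were within that range, whereas Grm3 (20.15 ± 2.31%) and Grm4 (21.9 ± 3.43%) were above it. Astrocyte RNA was present in the microglia libraries too, with astrocyte markers between 72.0 and 97.3 TPM in sum against 4969 to 5213 TPM in astrocytes, where Grm3 was at 255.3 TPM against 3.83 TPM in microglia. The part of neuronal RNA and of astrocyte RNA in these glial levels was not tested.

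**Figure D3:**
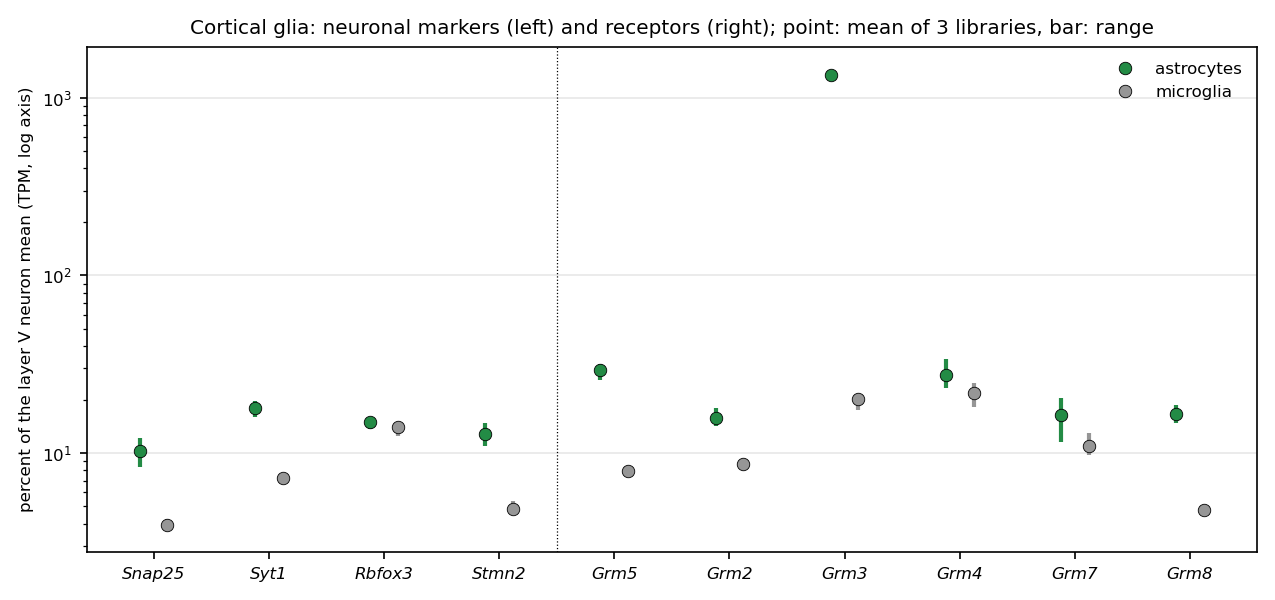
Level in cortical astrocytes and microglia as a percent of the mean of layer V neurons (log axis) for 4 pan-neuronal markers and the 6 receptors; points are means of 3 libraries and bars their range. Most receptors lie near the markers, while Grm3 reaches 1344% in astrocytes.

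Against the mean of the 4 neuronal types, 4 receptors were called in astrocytes (77.1% of all genes). Grm3 was higher by 6.33 (SE 0.0895, adjusted p = 2.75e-20 from edgeR), an 80.3-fold difference, and Grm4, Grm5 and Grm7 were lower, with log2 fold changes of -2.34, -0.93 and -0.44. Grm2 (-0.05, SE 0.152, adjusted p = 0.795 from edgeR) and Grm8 (0.39, SE 0.203, adjusted p = 0.0908) did not pass. With cerebellar granule cells left out, all 6 were called (77% of all genes) and 5 were lower in astrocytes, Grm2 by a log2 fold change of -1.83 (SE 0.141) and Grm8 by -1.23 (SE 0.193). Grm3 was still 34.8-fold higher.

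In cerebellar granule cells against the other 3 neuronal types, all 6 receptors were called (77.9% of all genes), and Grm4 ran opposite to the rest. Grm4 was 55.3-fold higher (log2 fold change 5.79, SE 0.132, adjusted p = 4.26e-17 from edgeR). The other 5 were lower, from -4.82 (SE 0.193) for Grm3 to -7.16 (SE 0.236) for Grm2, beside a median of -0.206 over all genes tested. Grm7, at -6.64 (SE 0.125), and Grm8, at -6.46 (SE 0.339), belong to the same group III as Grm4. Grm8 had the largest SE and the fewest counts. The value of Grm2 ranged most with a library left out, from -8.03 without cerebellar replicate 2, the one at 0.44 TPM, to -6.69 without cerebellar replicate 1. Within batch 1, which holds the 3 libraries of each of these types but interneurons, all 6 differences were called in the same direction. They were also within batch 2, where cerebellar granule cells, dentate gyrus granule cells and layer V neurons have 1 library each, assumed to vary like those of the other types.

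In dentate gyrus granule cells against the other neurons, all 6 were called (64.2% of all genes). The difference was largest for Grm2, 49.3-fold (log2 fold change 5.62, SE 0.128, adjusted p = 1.09e-16 from edgeR). Left without cerebellar granule cells, it was 3.64 (SE 0.128), and 64.1% of all genes were called. In that comparison with layer V neurons and interneurons, all 6 were again called, with Grm2, Grm5 (0.49, SE 0.0614) and Grm7 (0.54, SE 0.072) higher in dentate gyrus granule cells and Grm3 (-1.19, SE 0.123), Grm8 (-1.73, SE 0.206) and Grm4 (-2.30, SE 0.179) lower. By level, Grm5 in dentate gyrus granule cells overlapped interneurons, and Grm7 overlapped layer V neurons. For Grm3 and Grm8 the sign turned, from 0.55 and 0.61 with cerebellar granule cells among the neurons. The call of Grm8 with them was also lost without dentate replicate 3 (0.18, adjusted p = 0.437) and without cerebellar replicate 1 (0.47, adjusted p = 0.0987) or 2 (0.57, adjusted p = 0.0564). The 4 interneuron markers summed to between 153.6 and 169.4 TPM in dentate gyrus granule cells, mostly Gad1, which was higher there (149.5 TPM) than in layer V neurons (14.9 TPM), while Gad2 (4.73 against 6.65 TPM), Slc32a1 (3.57 against 5.91 TPM) and Dlx1 (1.86 against 2.03 TPM) were not. The part of interneuron RNA in these levels was not tested.

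In layer V neurons against the other neurons, all 6 were called (67.6% of all genes). The log2 fold changes were 3.84 for Grm8 (SE 0.187), 3.58 for Grm2, 3.33 for Grm3, 2.91 for Grm7, 1.44 for Grm5 and -0.85 for Grm4. Without cerebellar granule cells, 61.8% of all genes and all 6 receptors were called. Grm3 (1.94, SE 0.107), Grm8 (1.90, SE 0.178), Grm2 (1.35, SE 0.128) and Grm7 (0.78, SE 0.0713) stayed higher, Grm4 turned to 1.22 (SE 0.151) and Grm5 to -0.76 (SE 0.0646). These values compare layer V neurons with a log-scale mean of unlike types: by level, Grm2 was lower in layer V neurons than in dentate gyrus granule cells, Grm7 overlapped dentate gyrus granule cells and Grm4 overlapped interneurons.

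In interneurons against the other neurons, all 6 were called (64.4% of all genes). Grm5 was higher by 2.34 (SE 0.0572), Grm8 by 2.00, Grm7 by 1.04 and Grm3 by 0.94, and Grm4 (-0.97) and Grm2 (-2.05) were lower. Without cerebellar granule cells, 61.6% of all genes and 5 receptors were called, and 4 signs turned: Grm3 was -0.75 (SE 0.119), Grm7 -1.32 (SE 0.0781), Grm4 1.08 (SE 0.151) and Grm8 -0.17 (SE 0.189, adjusted p = 0.47 from edgeR). Grm5 (0.26, SE 0.0619) remained higher, although by level it overlapped dentate gyrus granule cells, whose mean was higher. Grm2 was 31.7-fold lower than in dentate gyrus granule cells and layer V neurons (-4.99, SE 0.174). The interneuron libraries carried the most oligodendrocyte RNA, as given above, came from batch 2 alone and pooled 2 mice each; the part of these in the differences was not tested.

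**Figure D4:**
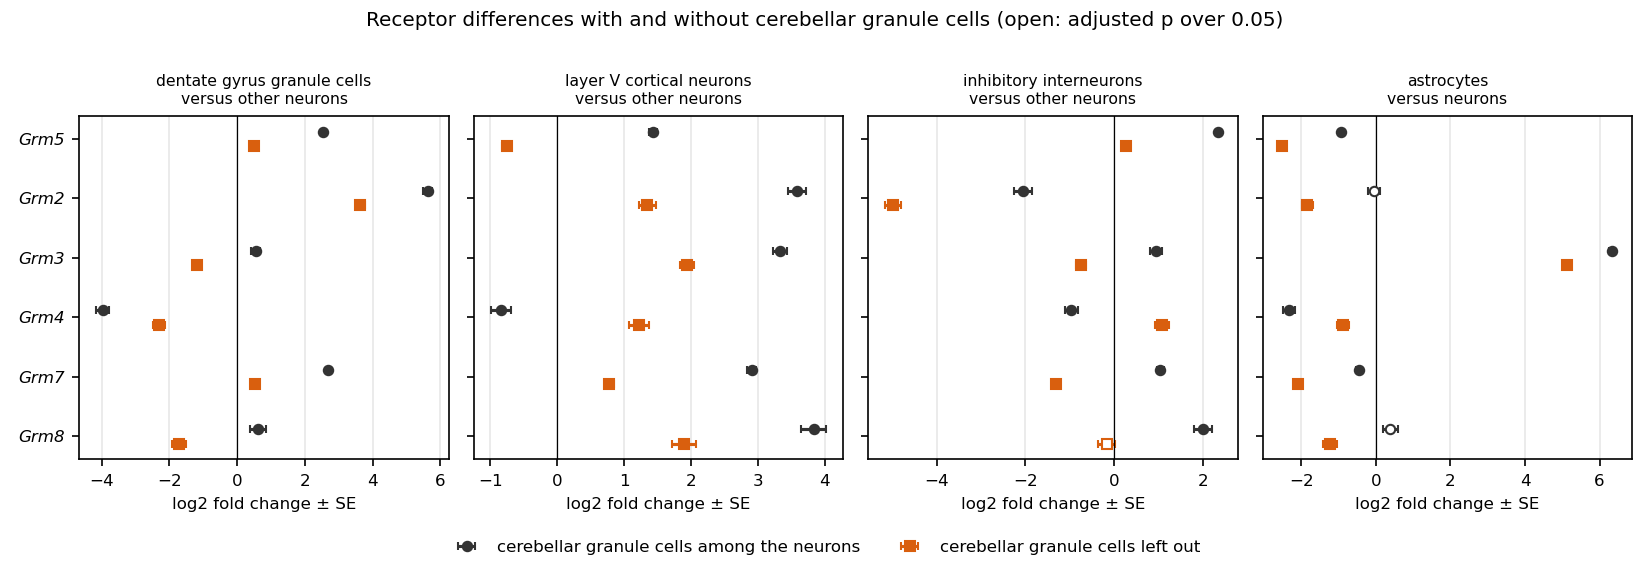
Log2 fold change with its SE (horizontal axis) of each receptor in 4 comparisons, with cerebellar granule cells among the neurons (circles) and left out of them (squares); open symbols have an adjusted p over 0.05. Leaving them out turns the sign of Grm3 and Grm8 for dentate gyrus granule cells, of Grm4 and Grm5 for layer V neurons, of Grm3, Grm4, Grm7 and Grm8 for interneurons, and of Grm8 for astrocytes.

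The receptor variants differed between cell types as well. Shares are those of kallisto, which divides reads among transcripts by a model; the compared transcripts also differ in untranslated sequence and length. No test was run on these shares, which are given as a description. Of the 2 long Grm5 transcripts, Grm5-204 carries the extra exon printed above (1203 codons against 1171, the mGlu5b and mGlu5a forms). It took 27.6, 33.1 and 28.6% of their summed TPM in dentate gyrus granule cells and 26.9, 19.1 and 33.01% in astrocytes. The share in interneurons was 13.6, 11.2 and 9.27%, and that in layer V neurons 5.89, 5.47 and 5.72%. The ranges of dentate gyrus granule cells, interneurons and layer V neurons did not overlap. Taken from estimated counts, without the length correction, the means were lower, 21.3, 7.66 and 3.68%, in the same order. A short non-coding model, Grm5-205, took 13.5 ± 0.674% of Grm5 in dentate gyrus granule cells. Interneurons gave it 12.2 ± 0.348% and layer V neurons 3.53 ± 0.582%.

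The Grm7 ends printed above belong to the mGlu7a form (Grm7-202, 915 codons) and the mGlu7b form (Grm7-201, 922 codons). Grm7-201 took 18.5, 20.9 and 16.2% of the pair in dentate gyrus granule cells and 19.9, 13.3 and 16.6% in interneurons, which overlapped. In layer V neurons it took 6.98, 5.98 and 5.83%, below every library of both, although Grm7 itself was at a like level in dentate gyrus granule cells. Astrocytes, at 11.7, 8.06 and 17.9% of a low total, spanned most of the range between. A short fragment, Grm7-205 (386 bases), took 11.3 ± 1.17% of Grm7 in layer V neurons.

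For Grm8, Grm8-202 and Grm8-203 end in the coding sequence printed for Grm8-202, and Grm8-201 in the one closer to the Grm4-201 and Grm7-202 ends. They took 84.9, 85.4 and 87.2% of the 3 long transcripts in layer V neurons and 77.1, 85.5 and 70.9% in interneurons, so the ranges overlapped. Grm2-203 lacks 834 bases (chr9:106647271-106648104, 278 codons) of a coding exon of Grm2-201. It was assigned 29.8, 29.2 and 30.1% of the pair in dentate gyrus granule cells, 10.2, 14.1 and 18.7% in layer V neurons and 24.2, 20.01 and 28.99% in astrocytes. Its share of estimated counts was lower, 15.5% in dentate gyrus granule cells and 6.80% in layer V neurons, as its model is shorter, 2111 bases against 4711.

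Grm4 transcripts differed at their starts and also elsewhere, with model lengths of 4607 bases for Grm4-201, 3417 for Grm4-205 and 3451 for Grm4-206. Grm4-201 and Grm4-205 encode the same 912 codons from different first exons (chr17:27512792-27513406 and chr17:27513633-27513714), while the first exon of Grm4-206 lies further upstream (chr17:27520909-27521403) and its coding sequence has 657 codons. In cerebellar granule cells Grm4-201 held 72.6 ± 1.53% of Grm4, Grm4-205 15.96 ± 4.72% and Grm4-206 5.09 ± 2.27%. In layer V neurons Grm4-206 held 30.1, 34.4 and 33.5%, above every interneuron library (6.38 to 15.02%) and cerebellar library (2.56 to 6.94%). Grm4-205 held 1.88 ± 1.69% in layer V neurons and at most 0.0493% in interneurons. Grm3 has a single annotated transcript.

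**Figure D5:**
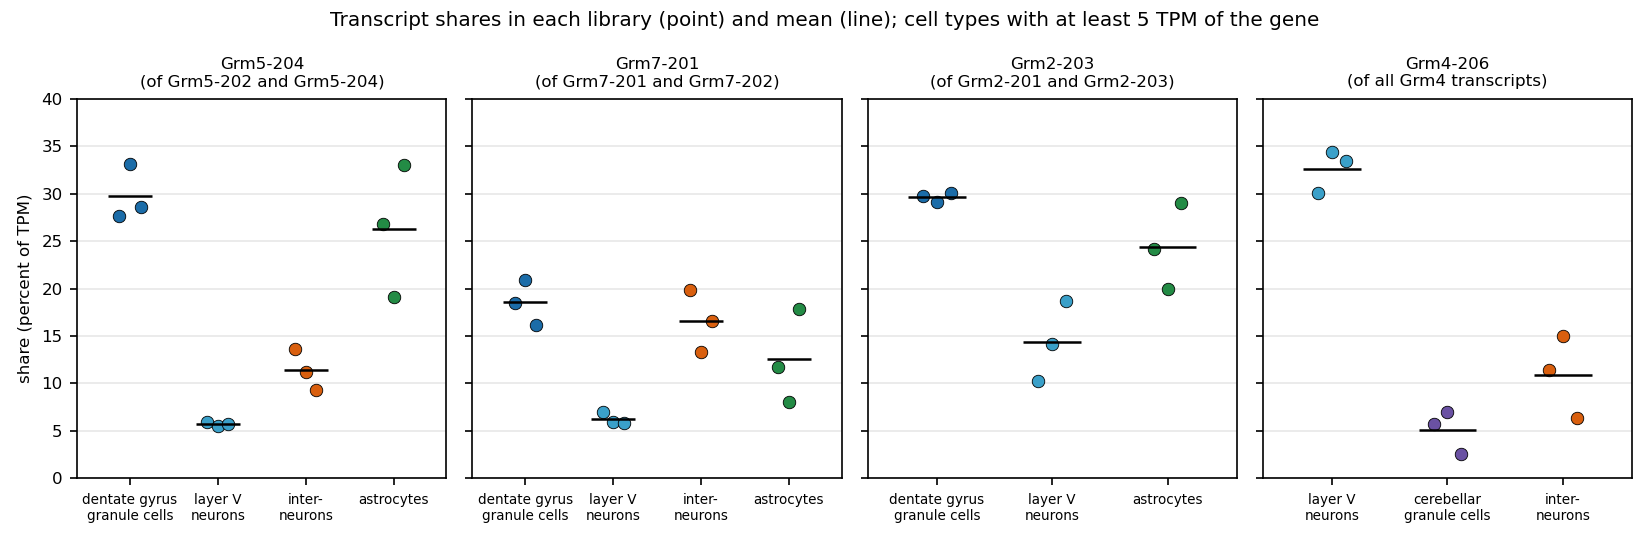
Share of a receptor variant (percent of TPM of the transcripts named in each panel) in every library (points) and the mean of 3 (line), for cell types with at least 5 TPM of the gene. Layer V neurons have the lowest share of Grm5-204 (5.69%) and Grm7-201 (6.27%) and the highest of Grm4-206 (32.6%).

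The signalling partners were described by lists chosen for the pathway. Of 13 genes of the Gq arm, through which Grm5 acts, 9 were higher and 4 lower in neurons than in glia, with a median log2 fold change of 1.05. Over all 20524 genes, 83.3% were called, 7480 higher and 9607 lower, with a median of -0.183, and these values stand beside each count of neurons against glia that follows. Prkcb, a protein kinase C isoform and the list's highest gene by level, was at 1116 TPM in layer V neurons and 755.9 in cerebellar granule cells against 150.8 in astrocytes. Plcb4, a phospholipase C, had the largest positive log2 fold change, 1.75 (SE 0.0891), and its level ran from 3.01 TPM in dentate gyrus granule cells to 361.8 TPM in the cerebellar ones. Plcb3, another phospholipase C, had the largest negative value, -5.29 (SE 0.0876), with 50.1 TPM in astrocytes and 51.7 in microglia and at most 5.08 in a neuronal type. In cerebellar granule cells against other neurons, 9 of the 13 were lower and 3 higher, beside 77.9% of all genes called (8822 lower and 7168 higher).

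Of 15 genes of the Gi/o arm, 11 were higher in neurons and 3 lower (median 1.22, with 83.3% of all genes called). Gnao1, the main G-protein alpha subunit of brain, was the highest by level and was at 797.4 TPM in astrocytes, above all 4 neuronal types (310.1 to 538.1 TPM), and at 73.1 TPM in microglia. Kcnj3, a subunit of the potassium channels that Gi/o receptors open, had the largest positive value, 3.34 (SE 0.055). Gnai2 had the largest negative one, -3.53 (SE 0.0306), with 1046 TPM in microglia and 565.7 in astrocytes. Against microglia, 12 of these genes were higher in astrocytes and 2 lower (median 1.01), beside 76.1% of all genes called (8171 higher and 7444 lower, median 0.044).

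Of 14 regulators and binding partners, 9 were higher in neurons and 5 lower (median 0.426, with 83.3% of all genes called and a median of -0.183). Ncdn, which encodes neurochondrin, a binding partner of mGlu5, had the highest level and the largest positive value (3.19, SE 0.0513), with 3656 TPM in dentate gyrus granule cells and at most 775.4 elsewhere. Arrb2, a beta-arrestin that takes part in receptor desensitisation, had the largest negative one (-0.96, SE 0.0408) and was at 406.4 TPM in microglia. In astrocytes it was at 27.9 TPM, below every neuronal type (41.8 to 83.3 TPM). Elfn1, whose protein recruits mGlu7 to synapses onto certain interneurons from the postsynaptic side and which was chosen after its values were seen, was at 126.8 TPM in interneurons, at most 8.44 TPM in any other type and 0.0182 TPM in cerebellar granule cells.

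Of 5 genes that make or cleave N-acetylaspartylglutamate (NAAG), a peptide agonist of mGlu3, 2 were higher in neurons and 3 lower, again beside 83.3% of all genes. Nat8l, which makes the precursor N-acetylaspartate, was the highest by level (151.9 TPM in interneurons, 48.8 in astrocytes). Rimkla, a NAAG synthetase, had the largest positive value (1.88, SE 0.0592) and peaked in interneurons at 24.7 TPM. Naalad2, a NAAG peptidase, had the largest negative one (-5.21, SE 0.284), with 7.78 TPM in microglia and at most 0.257 in any other type. Folh1, the main NAAG peptidase, chosen after its values were seen, was at 19.4 TPM in astrocytes and at most 1.47 elsewhere, and so was highest in the same cell type as Grm3. Rimklb, the other NAAG synthetase of the list and also chosen after its values were seen, went opposite to Rimkla (-0.40, SE 0.053). It was at 47.8 TPM in interneurons and 41.55 TPM in astrocytes.

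Over the 18 libraries, the pattern of each receptor was compared with that of 13559 genes by Pearson's r of log2(TPM + 1), as a description in which libraries of a cell type share its level. Nearest to Grm2 were Grp (0.991), Grhl1 (0.986) and Ptgs2 (0.985), and nearest to Grm3 were Ttyh1 (0.982), Maob (0.981) and Ephx2 (0.974). Grm4 was closest to Cdh7 (0.992), Rnf152 (0.990) and 6430571L13Rik (0.987). Grm5 was closest to Tafa2 (0.995), Pnma2 (0.995) and Plppr5 (0.994), Grm7 to Fam189a1 (0.995), Gfra2 (0.994) and Cnih3 (0.992), and Grm8 to Agbl4 (0.988), 1110032F04Rik (0.984) and Ccdc87 (0.984). Among the receptors themselves, r was highest for Grm5 with Grm7 (0.925) and for Grm2 with Grm7 (0.863). It was below 0 for Grm4 with each of the other 5 (-0.348 to -0.599). These values take in cerebellar granule cells, where Grm4 averaged 488.5 TPM and the other 5 reached at most 1.013 TPM. Values of r without that cell type are not given here.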

How the data were processed

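Ribosome-associated mRNA was sequenced in 22 libraries of 18 replicates. Per the methods and the submitters' processing notes, reads were trimmed with cutadapt 3.5 and assigned by kallisto 0.46.2 to GENCODE M24 transcripts (GRCm38). The authors deposited estimated counts, not normalized, and TPM, normalized for length and depth, for each transcript. Here both were summed per gene. Counts were rounded to whole numbers, filtered (filterByExpr, minimum count 10), scaled by TMM and fitted with the quasi-likelihood method of edgeR 4.0.16 in R 4.3.3; DESeq2 1.42.0 and limma 3.58.1 served as alternatives. The authors used sleuth, which was not run. Tables were made with pandas 2.3.3. The members and lists were chosen with earlier results of these data known. Of each pathway list, the gene with the highest mean TPM is named. So are the genes with the largest positive and negative log2 fold change called between neurons and glia. Elfn1, Folh1 and Rimklb fall outside this rule. In data simulated for cerebellar granule cells against other neurons (19330 genes), edgeR recovered 95 of 100 genes changed 4-fold and 88 of 100 changed 2-fold. The simulation gave every gene the same dispersion and kept the cell types otherwise alike. Recovery of receptors at their own counts and differences was not tested. Alternatives covered normalization, filters, batch, pseudocounts, protein-coding transcripts and each replicate left out. GENCODE M21 gave positions and sequences.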

Additional observations from a re-analysis of the deposited data

How the results depend on the processing

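Of 522 log2 fold changes of single receptors recomputed under alternatives other than leaving out a replicate, 496 kept their direction and their side of the threshold, 7 were no longer called, 5 became called and 14 turned sign. Leaving cerebellar granule cells out of the contrast, chosen after seeing the data, gave -1.19 for Grm3 and -1.73 for Grm8 in dentate gyrus granule cells, 1.22 for Grm4 and -0.76 for Grm5 in layer V neurons, -0.75, 1.08, -1.32 and -0.17 for Grm3, Grm4, Grm7 and Grm8 in interneurons, and -1.23 for Grm8 in astrocytes against neurons. For Grm8 in astrocytes against neurons, the value was also -0.032 within batch 2, -0.54 on log2(TPM + 1) and -0.24 on log2(TPM + 0.1). Grm8 was -0.95 within batch 1 between neurons and glia and -0.25 on log2(TPM + 1) in dentate gyrus granule cells. Of 756 values with a replicate left out, 1 turned sign: Grm2 in astrocytes against neurons was 0.12 without cerebellar granule cell replicate 2 and lay between -0.22 and 0.12 over all replicates left out; 749 kept sign and call. Replacing batch 1 libraries by batch 2 libraries could change only 1 replicate of each cell type that had both. It left interneurons, which were in batch 2 alone, as they were. With this replacement, the 43 receptor means and transcript shares recomputed moved by less than 1 SD of the replicates. Separately, taking 19 transcript shares from estimated counts in place of TPM moved 11 of them by more than that. The number of receptors called stayed within 1.5 times its main value under each alternative. Only a fall could have passed this bound, as at least 4 of the 6 receptors were called in each comparison. No pair of cell types had same-numbered replicates whose deviations correlated above 0.1 in every number (0 of 15 pairs, correlations from -0.1 to 0.109). Some pairs were weakly positive in every number, such as interneurons with microglia (0.064, 0.047 and 0.079). With the replicate number as a block, 6 receptors were called in each comparison but astrocytes versus neurons, where 4 were, and no call changed. Depth limits mainly Grm2, Grm3, Grm7 and Grm8 in cerebellar granule cells, which rest on at most 41 counts per library.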
